A study of Sus scrofa with 14 samples.

Results

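Collagen genes were taken as all genes whose Sus scrofa symbol is COL, a number, A and a number, which gave 39 of the 21280 genes with an estimated count and a TPM (a transcript level corrected for transcript length and library depth). By class, 10 were fibrillar, 6 belonged to the basement membrane collagens (type IV), 3 to the network-forming short-chain collagens (types VIII and X) and 20 to other classes. The other classes held 8 FACIT genes (fibril-associated collagens with interrupted triple helices), 5 beaded filament genes (type VI), 4 transmembrane collagens, 2 multiplexins and the unclassed COL28A1. RNA came from the upper layer of backfat (ULB), a subcutaneous depot, and from the greater omentum (GOM), a visceral depot. The donors were 4 healthy female pigs aged 2 years, 2 wild boars (WB) brought early from the wild to captivity and 2 Bama pigs (BM), kept on 1 farm and a shared feeding scheme and fasted before sampling. There were 7 RNA libraries, namely WB-GOM 1 and 2, WB-ULB 1 and 2, BM-GOM 1 and 2, and BM-ULB 2, and 7 Hi-C libraries of the same names. In all comparisons of libraries, Bama pig ULB therefore rests on 1 library of each assay, and each breed on 2 animals. The Hi-C nuclei came from the floating, adipocyte-containing layer of a centrifuged suspension, whereas the RNA came from the whole tissue sample, so the assays did not sample the same mixture of cells.

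Collagens are triple helices of 3 chains, and several types need chains from different genes in a set ratio. Fibrillar collagens (types I, III and V) build the load-bearing fibres of connective tissue, type IV chains build the sheet of the basement membrane that surrounds each adipocyte and vessel, and type VI forms beaded filaments that are abundant around adipocytes. FACIT collagens sit on the surface of fibrils, and the multiplexins COL15A1 and COL18A1 lie between basement membrane and fibrils. In fat, much of the collagen is made by fibroblast-like progenitors, while adipocytes and vessel cells contribute basement membrane chains.

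The libraries held between 10833153 and 18627076 estimated counts. The tissue label was checked against marker lists. All 7 adipocyte markers were found, and their summed level lay between 10518 and 19392 TPM in all libraries. Other cell types moved with some groups. Of 8 mesothelial markers 3 were found (WT1, KRT8 and KRT18, none below the TPM threshold of 0.1 in every library), and they summed to 113 to 442 TPM in GOM against 3 to 17.1 TPM in ULB. Of 6 skeletal muscle markers 3 were found, and they summed to 291 TPM in WB-ULB 1 and to between 2.03 and 6.41 TPM elsewhere. All 8 fibroblast and progenitor markers were found, at 3292 to 4979 TPM in wild boar and 2088 to 3630 TPM in Bama pig. BM-GOM 1 stood apart from its group: across 14163 genes its Spearman rho was 0.931 with BM-ULB 2 and 0.920 with BM-GOM 2, and results that rest on it are given without it as well. In bulk tissue, fewer cells of a type and less RNA per cell cannot be told apart.

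Collagen transcripts together made up 0.351% to 0.906% of the TPM of all listed genes. Their sum was 3877 and 3325 TPM in WB-GOM, 7734 and 7301 TPM in WB-ULB, 3359 and 3824 TPM in BM-GOM, and 6300 TPM in BM-ULB. The 3 ULB libraries were thus all above the 4 GOM libraries. Most of this gap lay in the fibrillar class, which summed to 2625 and 1844 TPM in WB-GOM, 5595 and 4342 TPM in WB-ULB, 1067 and 2116 TPM in BM-GOM, and 3728 TPM in BM-ULB. The basement membrane class overlapped between the depots, at 386 to 957 TPM in GOM and 469 to 1035 TPM in ULB. Of the 39 genes, 15 had a median of at least 20 TPM over the 7 libraries, 12 had a median between 1 and 20 TPM, and 12 had a median below 1 TPM.

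**Figure D1:**
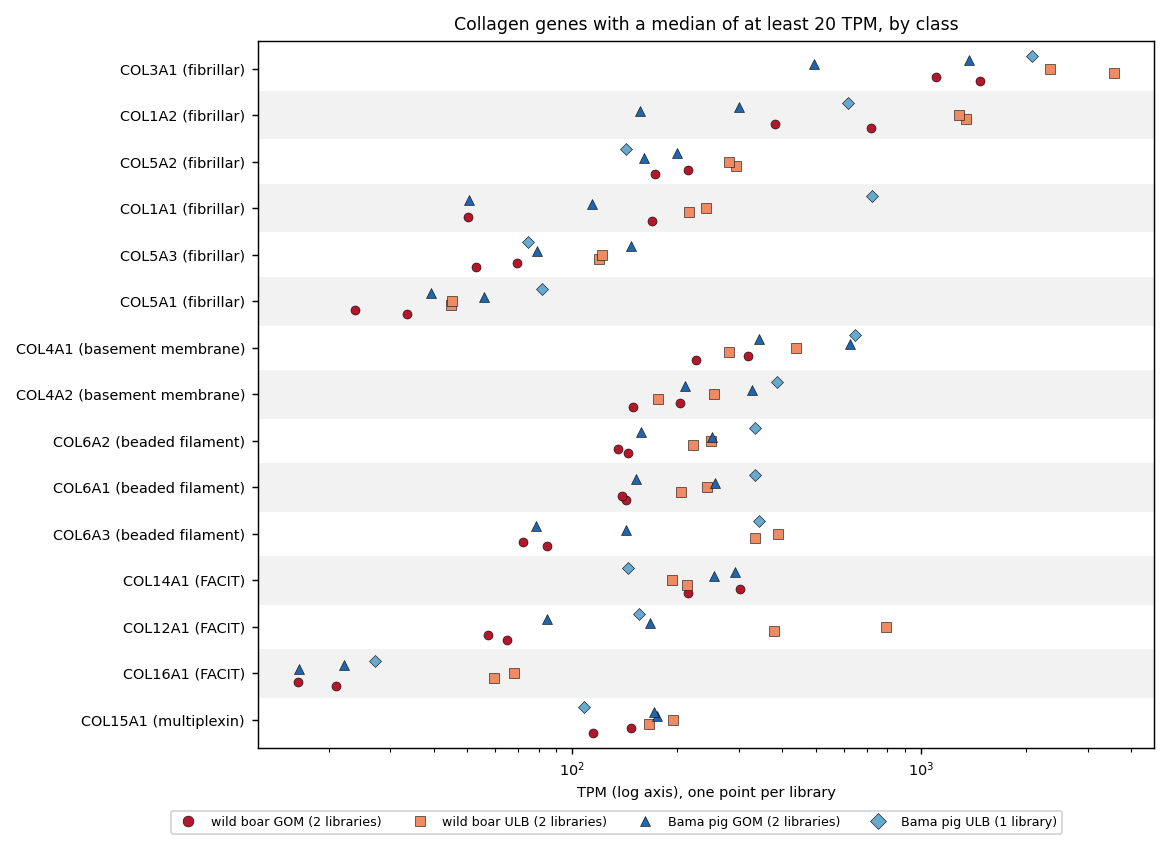
TPM (log axis) of the 15 collagen genes with a median of at least 20 TPM, one point per library, with colour and shape for breed and depot and genes grouped by class. COL3A1 was the highest gene and COL16A1 the lowest of those shown, and COL6A3 and COL16A1 had all ULB points to the right of all GOM points.

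Among fibrillar genes, COL3A1, which encodes the single chain of type III collagen, was the most abundant collagen transcript, with the rank of 75 among all genes by median TPM. Its TPM was 1474 and 1100 in WB-GOM, 3564 and 2344 in WB-ULB, 492 and 1371 in BM-GOM, and 2085 in BM-ULB. Every ULB library was above every GOM library. COL1A2, the type I chain present once per helix, followed at 718 and 382 TPM in WB-GOM, 1347 and 1285 TPM in WB-ULB, 156 and 300 TPM in BM-GOM, and 618 TPM in BM-ULB, where the Bama pig ULB library fell inside the range of wild boar GOM. COL1A1, the type I chain present in 2 copies per helix, was at 169 and 50.2 TPM in WB-GOM, 216 and 242 TPM in WB-ULB, 114 and 50.5 TPM in BM-GOM, and 721 TPM in BM-ULB. The Bama pig ULB library was therefore well above both wild boar ULB libraries for COL1A1 and below both for COL1A2.

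Type V chains, which nucleate type I fibrils, were spread less. COL5A2 was at 173 and 215 TPM in WB-GOM, 294 and 282 TPM in WB-ULB, 161 and 200 TPM in BM-GOM, and 143 TPM in BM-ULB. The depots did not overlap in TPM within either breed, but its log2 fold changes of GOM over ULB by edgeR were -0.31 (SE 0.39) in wild boar and -0.13 (SE 0.48) in Bama pig. COL5A3 was at 53 and 69.6 TPM in WB-GOM, 119 and 122 TPM in WB-ULB, 79.1 and 147 TPM in BM-GOM, and 74.7 TPM in BM-ULB. COL5A1 was at 33.5 and 23.9 TPM in WB-GOM, 44.9 and 45.1 TPM in WB-ULB, 55.8 and 39.3 TPM in BM-GOM, and 81.6 TPM in BM-ULB. COL5A1 thus overlapped between depots through BM-GOM 1, and COL5A3 through both Bama pig GOM libraries. Of the remaining fibrillar genes COL27A1 and COL11A1 had medians of 3.67 and 1.46 TPM, and COL2A1 and COL11A2, both known from cartilage, reached at most 0.597 and 0.184 TPM.

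Among basement membrane genes, the ubiquitous chains COL4A1 and COL4A2 were the third and the sixth most abundant collagens. COL4A1 was at 227 and 319 TPM in WB-GOM, 281 and 437 TPM in WB-ULB, 624 and 344 TPM in BM-GOM, and 645 TPM in BM-ULB. COL4A2 was at 149 and 204 TPM in WB-GOM, 176 and 254 TPM in WB-ULB, 327 and 210 TPM in BM-GOM, and 387 TPM in BM-ULB. BM-GOM 1 and BM-ULB 2 were the highest libraries for both genes, and the depots overlapped. The less common chains COL4A5 and COL4A6, typical of smooth muscle and some epithelial basement membranes, had medians of 3.58 and 1.74 TPM. COL4A3 and COL4A4, known from kidney and lung, had medians of 0.348 and 0.372 TPM and were highest in WB-ULB 1, at 3.12 and 5.35 TPM, the library that also carried skeletal muscle markers (291 TPM), whose part in these values was not tested.

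Among beaded filament genes, COL6A1 and COL6A2 were close to each other in every library. COL6A1 was at 143 and 139 TPM in WB-GOM, 205 and 243 TPM in WB-ULB, 257 and 152 TPM in BM-GOM, and 334 TPM in BM-ULB. COL6A2 was at 144 and 135 TPM in WB-GOM, 222 and 249 TPM in WB-ULB, 252 and 157 TPM in BM-GOM, and 333 TPM in BM-ULB. In TPM, BM-GOM 1 lay above both wild boar ULB libraries for both genes, while the other 3 GOM libraries were below every ULB library. In TMM-scaled CPM, BM-GOM 1 was also below every ULB library for both genes, so that the depots did not overlap. COL6A3, the long chain of type VI, was at 84.8 and 72.3 TPM in WB-GOM, 334 and 389 TPM in WB-ULB, 143 and 78.7 TPM in BM-GOM, and 343 TPM in BM-ULB, with no overlap between the depots.

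Among FACIT and multiplexin genes, COL14A1, which binds type I fibrils, was at 214 and 302 TPM in WB-GOM, 213 and 193 TPM in WB-ULB, 255 and 293 TPM in BM-GOM, and 144 TPM in BM-ULB, and was the only gene above 20 TPM whose 4 GOM libraries were all above its 3 ULB libraries, in TPM though not in TMM-scaled CPM, and by a small margin between WB-GOM 1 and WB-ULB 1. COL12A1, the related fibril-associated chain of dense connective tissue, was at 65 and 57.2 TPM in WB-GOM, 378 and 792 TPM in WB-ULB, 167 and 84.7 TPM in BM-GOM, and 155 TPM in BM-ULB. The pair of wild boar ULB libraries was above all others. COL15A1 was at 115 and 147 TPM in WB-GOM, 166 and 195 TPM in WB-ULB, 175 and 172 TPM in BM-GOM, and 108 TPM in BM-ULB, and COL16A1 at 21 and 16.4 TPM in WB-GOM, 59.6 and 68.2 TPM in WB-ULB, 16.5 and 22.2 TPM in BM-GOM, and 27.1 TPM in BM-ULB. COL15A1 overlapped between the depots and COL16A1 did not. The remaining FACIT genes were low: COL21A1 had a median of 6.52 TPM, COL22A1 of 1.6 TPM, COL19A1 of 0.346 TPM and COL9A3 of 0.11 TPM, and COL9A1, the lowest collagen together with COL10A1, had TPM above 0 in WB-ULB 2 and BM-GOM 2 alone.

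The ratio between chains that assemble together gave a measure that does not depend on library scaling. COL6A1 to COL6A2 was 0.93 to 1.03 in the 7 libraries, and COL4A1 to COL4A2 was 1.53 to 1.91, with the highest value in BM-GOM 1. COL6A3 to COL6A1 separated the depots, at 0.59 and 0.52 in WB-GOM, 1.63 and 1.60 in WB-ULB, 0.56 and 0.52 in BM-GOM, and 1.03 in BM-ULB. The 4 GOM libraries lay close together, below all 3 ULB libraries. COL1A1 to COL1A2 split the libraries in another way, at 0.24 and 0.13 in WB-GOM, 0.16 and 0.19 in WB-ULB, 0.73 and 0.17 in BM-GOM, and 1.17 in BM-ULB. COL5A1 to COL5A2 was likewise highest in BM-GOM 1 and BM-ULB 2, at 0.35 and 0.57, against 0.11 to 0.20 in the other 5 libraries. COL1A1 and COL5A1 are richer in GC than their partners: exon GC was 62.3% for COL1A1 and 53.7% for COL1A2, and 68.4% for COL5A1 and 50.3% for COL5A2. The median deviation in log2 CPM of the 10% of genes richest in GC, minus that of the 10% poorest in GC, was -0.10 in BM-GOM 1 and -0.30 in BM-ULB 2, and reached 0.69 in WB-GOM 1, the highest of the 7 libraries. The part of GC in the ratios was not tested.

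**Figure D2:**
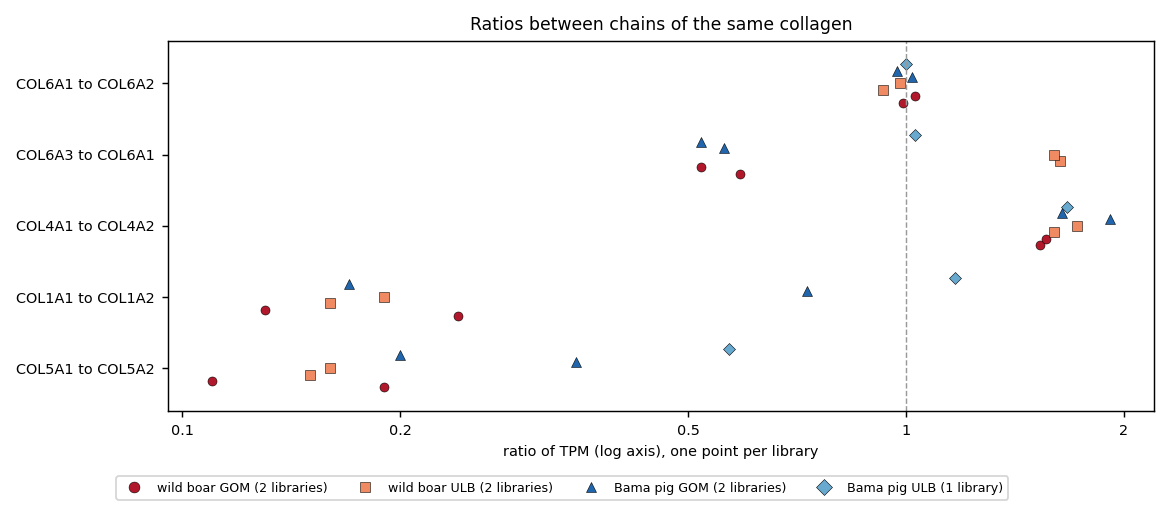
Ratio of TPM (log axis) between chains of the same collagen type, one point per library, with a dashed line at a ratio of 1. COL6A1 to COL6A2 stays between 0.93 and 1.03, COL6A3 to COL6A1 is below 0.6 in the 4 GOM libraries and above 1 in the 3 ULB libraries, and COL1A1 to COL1A2 is far higher in BM-GOM 1 (0.73) and BM-ULB 2 (1.17) than in the rest.

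COL4A1 and COL4A2 lie head to head on chromosome 11 of Sscrofa11.1, COL4A1 (chr11:76858332-76997409) on the minus strand and COL4A2 (chr11:76996885-77161617) on the plus strand. RefSeq gives COL4A2 a transcript from 76997543 and another that begins inside COL4A1, so reads in the stretch that the 2 genes share were assigned by the authors' quantification. Between the start of COL4A1 and that of the former transcript lie 133 bases, chr11:76997410-76997542, shown on the plus strand. This stretch lies upstream of COL4A1 and of that COL4A2 transcript, but inside COL4A2 as counted from its outer start. It is shown because the levels of the 2 genes kept a narrow ratio. The start sites of COL4A3 and COL4A4 also lie close, 662 bases apart on opposite strands. Their ratio was 0.25 to 3.33, at medians of 0.348 and 0.372 TPM. The ratio of COL6A1 to COL6A2 was narrow as well, at 0.93 to 1.03. The part of a shared start region in any of these ratios was not tested. The type I genes lie on different chromosomes, and the 250 bases before the RefSeq start of each are shown on the strand of the gene for contrast, COL1A1 at chr12:26397181-26397430 on the minus strand and COL1A2 at chr9:74174234-74174483 on the plus strand. For COL1A1 the outermost start, 26397180, was used, which belongs to 1 of its 3 RefSeq transcripts. The other 2 begin at 26397041, downstream of the printed window. Capitals mark matches of 3 motifs on either strand. The first is CCAAT, the second, the TATA box, is TATAAA, and the third, the GC box, is GGGCGG.
COL4A1 and COL4A2 gap: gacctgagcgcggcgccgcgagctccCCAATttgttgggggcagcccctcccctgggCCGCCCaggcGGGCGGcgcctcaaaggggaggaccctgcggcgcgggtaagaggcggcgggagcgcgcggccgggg
COL1A1: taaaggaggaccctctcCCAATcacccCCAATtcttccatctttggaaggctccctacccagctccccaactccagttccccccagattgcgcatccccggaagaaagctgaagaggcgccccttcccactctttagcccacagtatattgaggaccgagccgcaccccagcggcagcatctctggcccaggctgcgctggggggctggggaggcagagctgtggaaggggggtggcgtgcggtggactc
COL1A2: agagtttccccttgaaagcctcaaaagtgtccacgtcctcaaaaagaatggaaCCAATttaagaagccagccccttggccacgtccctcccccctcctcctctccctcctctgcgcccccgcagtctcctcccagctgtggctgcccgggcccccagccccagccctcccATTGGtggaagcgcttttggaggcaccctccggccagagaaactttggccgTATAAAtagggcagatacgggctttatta
The gap holds 1 CCAAT, 2 GC boxes, 1 on each strand, and no TATAAA, and its GC content is 78.9%. COL1A1 and COL1A2 each hold 2 CCAAT and no GC box, and COL1A2 holds a TATAAA whose last base lies 24 bases before its start. Of 19546 upstream windows of protein-coding genes of 250 bases, 31.9% hold a CCAAT, 9.76% a TATA box and 45.9% a GC box on either strand, and of 19547 windows of 133 bases, 21.6%, 5.26% and 39.1%. These matches are descriptions of letters and not sites of binding.

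The comparison of depots asked which collagens differ between visceral and subcutaneous fat over both breeds. In edgeR's quasi-likelihood test with breed as a covariate, a gene was called when its p, adjusted by Benjamini-Hochberg, was under 0.05 and its fold change was over 1 in size on the log2 scale. Of 38 collagen genes tested (COL9A1 did not pass the filter on low TPM), 5 were called, 2 higher and 3 lower in GOM, beside 3.58% of all 17874 genes (2.29% higher and 1.29% lower). DESeq2 called 14 collagen genes, 3 higher and 11 lower, beside 7.83% of all genes (4.53% higher and 3.3% lower). The 11 include COL10A1, which had counts in BM-ULB 2 alone. They also include COL2A1 and COL25A1, which had at most 38 and 36 counts in a library. The fold changes of 31 collagen genes were below 0 and of 7 above 0, beside 48.8% and 51.2% of all genes, with a median of -0.75 on the log2 scale beside 0.02 for all genes. At an unadjusted p below 0.05, 16 were lower and 6 higher in GOM, beside 8.94% and 10.9% of all genes. In TPM, 7 collagen genes had every GOM library above every ULB library and 7 the reverse, beside 8.3% and 2.64% of all genes. In TMM-scaled CPM, only COL22A1 and COL4A6 had every GOM library above every ULB library. The 7 genes with the reverse kept it, and COL5A1, COL6A1, COL6A2, COL12A1 and COL19A1 joined them. The share of all genes was not taken on that scale. TPM and scaled counts differ between the Bama pig depots, where the median log2 difference of all genes was 0.39 on TPM with a pseudocount of 0.5 and 0.04 after TMM scaling.

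COL22A1, a FACIT collagen of tissue junctions such as that of muscle and tendon, had the highest fold change of GOM over ULB. It lies at chr4:4069045-4313198. Its TPM was 1.97 and 1.60 in WB-GOM, 0.10 and 0.03 in WB-ULB, 3.36 and 5.78 in BM-GOM, and 0.03 in BM-ULB. It was near absent from ULB, where 8, 2 and 2 counts were seen, against 165 to 402 counts in each GOM library. The log2 fold change was 5.58 (SE 0.61, adjusted p = 0.00102 by edgeR with Benjamini-Hochberg adjustment). Since a fold over so few counts is imprecise, the ratio of CPM (counts scaled to library depth) was also taken by breed, and was 33.9 in wild boar (exact 95% interval 18.2 to 71.3) and 113 in Bama pig (31 to 931), where the intervals cover counting error only. COL22A1 was called in each breed alone, at 5.06 (SE 0.70, adjusted p = 0.0124 by edgeR) in wild boar and 6.80 (SE 1.08, adjusted p = 0.0437 by edgeR) in Bama pig. The 250 bases before its start, chr4:4068795-4069044 on the plus strand, are shown because COL22A1 was the collagen called in every setting of the depot comparison. Capitals mark GC boxes as above, here all on the other strand.
COL22A1: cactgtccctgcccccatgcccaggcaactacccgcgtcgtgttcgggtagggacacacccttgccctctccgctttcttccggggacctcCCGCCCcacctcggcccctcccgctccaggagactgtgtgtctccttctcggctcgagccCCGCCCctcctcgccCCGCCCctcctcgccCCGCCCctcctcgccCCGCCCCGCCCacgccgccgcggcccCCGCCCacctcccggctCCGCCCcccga
The window holds 8 GC boxes on the other strand, of which a neighbouring pair shares 1 base, and neither of the other motifs, at a GC content of 76.4% beside a median of 57.6% for all such windows.

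COL4A6 (chrX:88634925-88750938), the other collagen higher in GOM, was at 2.42 and 3.16 TPM in WB-GOM, 0.48 and 0.74 TPM in WB-ULB, 1.74 and 2.90 TPM in BM-GOM, and 0.33 TPM in BM-ULB. The depots did not overlap, and its log2 fold change was 2.45 (SE 0.39, adjusted p = 0.00802 by edgeR). Its partner chain COL4A5 had a log2 fold change of 1.12 (SE 0.37, adjusted p = 0.131 by edgeR) and COL6A5 of 2.77 (SE 0.77, adjusted p = 0.0826 by edgeR), with COL21A1 at 1.32, COL18A1 at 0.78 and COL14A1 at 0.55. These 5 genes had positive values that did not pass the threshold. The mesothelial markers WT1 and KRT8 and the sum of the 3 found (113 to 442 TPM against 3 to 17.1 TPM) were also higher in every GOM library, whereas KRT18 overlapped between the depots, and their part in the values of COL22A1 and COL4A6 was not tested.

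COL6A3 (chr15:137011549-137103687) was lower in GOM by the TPM given above, with a log2 fold change of -2.02 (SE 0.31, adjusted p = 0.00594 by edgeR). COL6A1 and COL6A2, its partners, were at -0.73 and -0.79 (adjusted p = 0.203 and 0.157 by edgeR). COL6A6 (chr13:1817475-1985968), a chain that can take the place of COL6A3 in type VI collagen, was at 8.60 and 18.2 TPM in WB-GOM, 39.9 and 27.1 TPM in WB-ULB, 12.6 and 13 TPM in BM-GOM, and 60.9 TPM in BM-ULB, and fell by 1.76 on the log2 scale (SE 0.42, adjusted p = 0.0481 by edgeR, 0.0535 with the replicate number as a block). COL6A5, which lies 188436 bases from COL6A6 by start site and is another alternative chain, ran the other way, at 8.29 and 18.1 TPM in WB-GOM, 3.06 and 1.00 TPM in WB-ULB, 9.28 and 104 TPM in BM-GOM, and 7.43 TPM in BM-ULB. In TPM, its 4 GOM libraries were all above its 3 ULB libraries, with 1 library, BM-GOM 2, far above the others. In TMM-scaled CPM, BM-GOM 1 was below BM-ULB 2, so that the depots overlapped. COL16A1 (chr6:88177798-88243718) fell by 1.31 on the log2 scale (SE 0.26, adjusted p = 0.022 by edgeR).

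No fibrillar gene was called, although all 10 had a fold change below 0, with a median of -1.32 on the log2 scale. COL1A2 was at -1.40 (SE 0.39, adjusted p = 0.0808 by edgeR), COL3A1 at -1.24 (SE 0.45, adjusted p = 0.165 by edgeR) and COL1A1 at -2.07 (SE 0.61, adjusted p = 0.0949 by edgeR). DESeq2 called these 3 genes. The summed fibroblast and progenitor markers, most of which was DCN, overlapped between the depots, at 2088 to 4078 TPM in GOM and 2147 to 4979 TPM in ULB. Of the 8 markers, PDGFRA and PI16 were higher in every GOM library, opposite to the sign of the fibrillar values, and 0 were lower in every GOM library. The part of these cells in the collagen values was not tested. COL12A1, at -2.21 (SE 0.53, adjusted p = 0.0507 by edgeR), just missed the threshold. The network genes COL8A1 and COL8A2 were at -0.44 and -1.64, and the last, COL10A1 of cartilage, had 35 counts in BM-ULB 2 and 0 counts in each other library. The 4 transmembrane genes had medians of 0.232 to 0.861 TPM, and of them COL25A1 had the largest shift, -2.80 (SE 0.73, adjusted p = 0.0649 by edgeR).

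**Figure D3:**
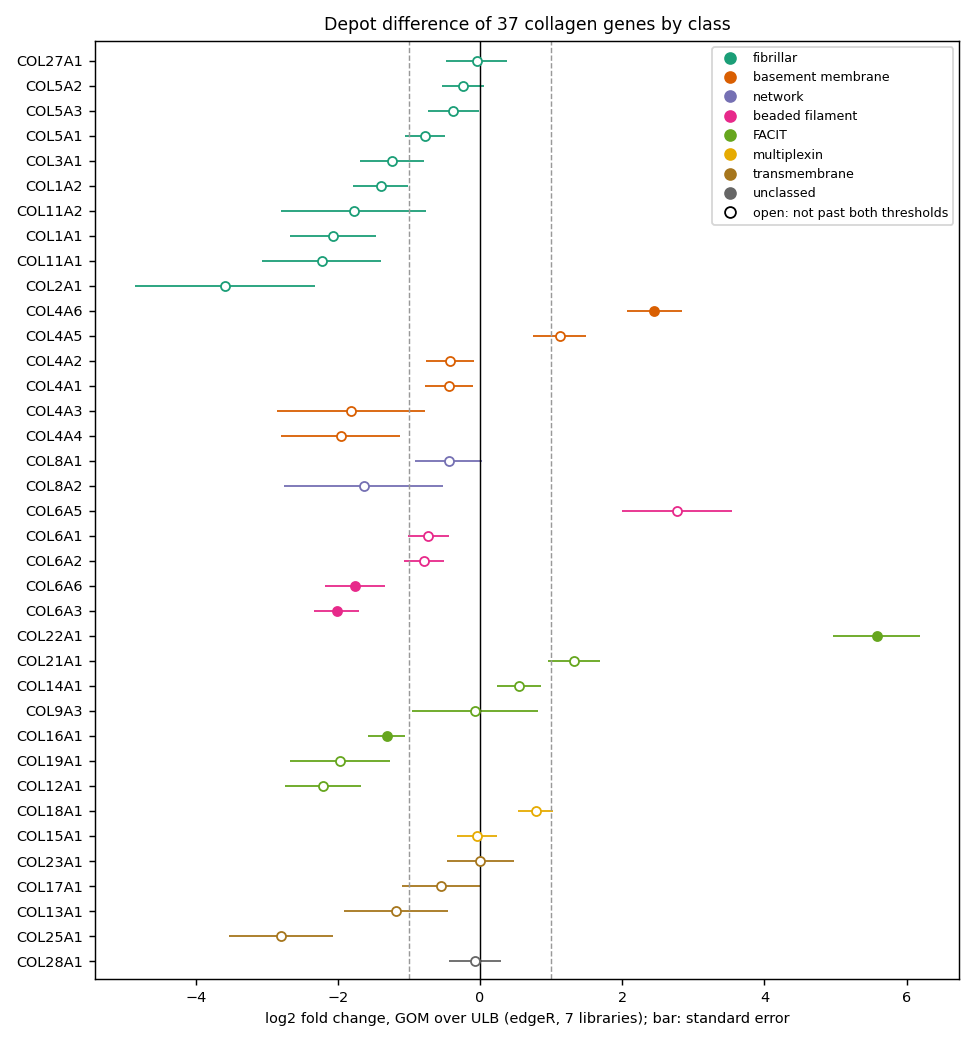
Log2 fold change of GOM over ULB (edgeR, 7 libraries, breed as covariate) for 37 of the 38 collagen genes tested, grouped by class, with bars of 1 standard error. Filled points passed both thresholds, dashed lines mark a log2 fold change of -1 and 1, and COL10A1, counted in 1 library alone, is left out. COL22A1 lies at 5.58, and all 10 fibrillar genes lie below 0.

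Several of these calls rested on single libraries. Without BM-ULB 2, COL22A1 was still called, COL12A1, COL11A1 and COL8A2 were called as well, and COL6A3 (adjusted p = 0.0683 by edgeR), COL4A6 (adjusted p = 0.0629 by edgeR), COL16A1 and COL6A6 were not. Without BM-GOM 1, the library whose rho was highest with BM-ULB 2, 6 genes were called, among them COL22A1, COL4A6, COL6A3 and COL16A1. Without WB-ULB 1, which carried skeletal muscle markers, COL22A1, COL4A6 and COL6A3 were called. Of the 7 fits that each left out 1 library, COL16A1 was called only in those without a Bama pig GOM library, and COL6A6 only in those without WB-GOM 2 or WB-ULB 2. GC-rich genes also moved with depot, since the difference between the GC-richest and GC-poorest genes, as above, was 0.69 and 0.41 in WB-GOM, -0.36 and -0.35 in WB-ULB, -0.10 and 0.05 in BM-GOM, and -0.30 in BM-ULB. The exon GC was 65.3% for COL22A1 and 64.3% for COL16A1, which differed in opposite directions, and the part of GC in the fold changes was not tested.

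Within wild boar, edgeR called 4 collagen genes between the depots beside 1.37% of all genes, COL22A1 higher in GOM and COL12A1, COL11A1 and COL8A2 lower, and DESeq2 called 8 beside 5.47% of all genes. Both depots came from the same 2 wild boars, and a fit of the 4 wild boar libraries blocked on replicate number gave 13 calls, although no source used here ties that number to an animal. COL11A1 (chr4:115638381-115841679), a minor fibrillar chain that limits fibril width, was at 1.04 and 0.65 TPM in WB-GOM, 7.91 and 14.5 TPM in WB-ULB, 1.46 and 2.72 TPM in BM-GOM, and 1.04 TPM in BM-ULB. COL8A2 (chr6:92246047-92272046), a short-chain collagen of endothelial and corneal basement layers, was at 1.85 and 0.78 TPM in WB-GOM, 7.80 and 18 TPM in WB-ULB, 2.55 and 2.38 TPM in BM-GOM, and 0.29 TPM in BM-ULB. For both genes and for COL12A1 (chr1:90744409-90875127) the wild boar ULB libraries stood above all others. The log2 fold changes in wild boar were -2.99 (SE 0.50, adjusted p = 0.0285 by edgeR) for COL12A1, -3.48 (SE 0.50, adjusted p = 0.0146 by edgeR) for COL11A1 and -3.07 (SE 0.51, adjusted p = 0.0278 by edgeR) for COL8A2. No collagen was called in wild boar when WB-GOM 1 or WB-ULB 2 was left out, COL22A1 alone was called without WB-GOM 2, and COL22A1 and COL11A1 were called without WB-ULB 1. Without BM-GOM 1 or without BM-GOM 2, which belong to the other breed, 7 were called. The summed fibroblast and progenitor markers were also highest in WB-ULB, at 4979 and 4468 TPM, of which DCN gave 3750 and 3407 TPM. Other markers of that list ran the other way between the wild boar depots, with PI16 at 97.5 and 178 TPM in WB-GOM and 22.9 and 27.6 TPM in WB-ULB, and PDGFRA at 148 and 89.3 TPM against 80.5 and 77.2 TPM. Their part in these values was not tested.

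Within Bama pig, where 1 ULB library stands for the depot and is assumed to vary like the other groups, COL22A1 was the only collagen called by edgeR, beside 0.403% of all genes, and DESeq2 called 8 beside 2.94%. COL6A6 and COL1A1 had log2 fold changes of -2.72 and -3.62 (adjusted p = 0.0823 and 0.0658 by edgeR). COL22A1 was not called in Bama pig without BM-GOM 2, WB-GOM 1 or WB-GOM 2, where its log2 fold change was 6.28 to 6.80. The difference between the breeds in their depot effect was tested as an interaction, and edgeR called no collagen and 0% of all genes. At an unadjusted p below 0.05, 2 collagens had a positive and 3 a negative interaction, beside 2.67% and 2.19% of all genes, and DESeq2 called COL11A1 and COL8A2 beside 0.291% of all genes. For COL8A2 the log2 fold change was 2.56 in Bama pig against -3.07 in wild boar, with an interaction of -5.63 (SE 0.90, adjusted p = 0.465 by edgeR). For COL11A1 the values were 0.56 and -3.48, with an interaction of -4.04 (SE 0.80, adjusted p = 0.562 by edgeR).

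**Figure D4:**
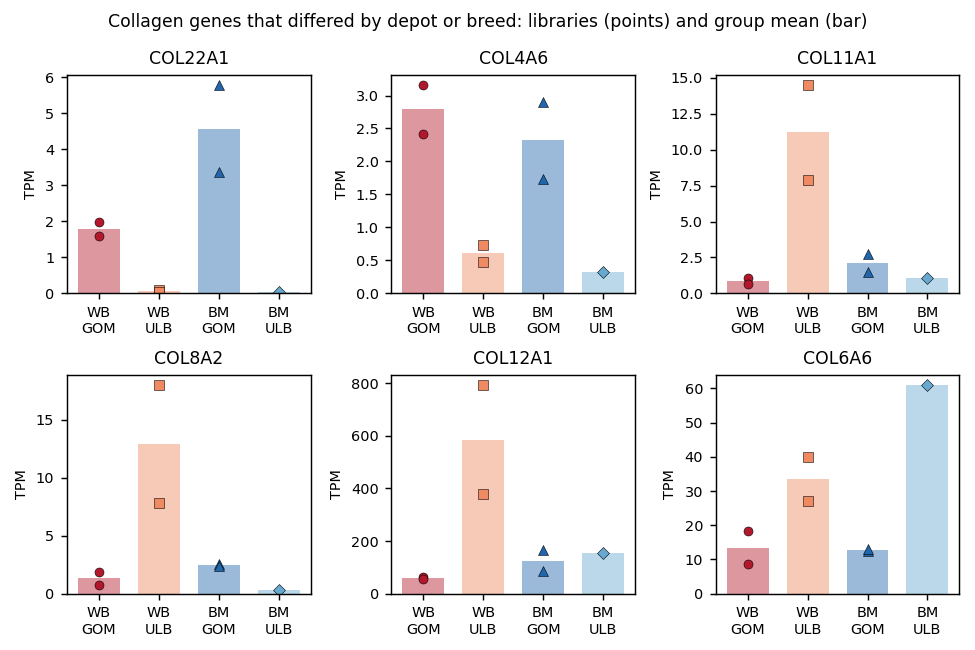
TPM of 6 collagen genes by breed and depot, with points for libraries and bars for group means, on linear axes from 0. COL22A1 and COL4A6 are high in the 4 GOM libraries, COL11A1, COL8A2 and COL12A1 are highest in wild boar ULB, and COL6A6 is highest in the single Bama pig ULB library (60.9 TPM).

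The comparison of breeds within GOM followed the study's design, with 2 libraries against 2. No collagen of 34 tested was called by edgeR, beside 0.0241% of all 16615 genes. At an unadjusted p below 0.05, 3 collagens were higher and 1 was lower in wild boar, beside 3.29% and 4.71% of all genes, and DESeq2 called COL1A2 beside 0.987% of all genes. COL1A2 had a log2 fold change of wild boar over Bama pig of 1.80 (SE 0.63, adjusted p = 0.609 by edgeR), and its wild boar GOM libraries (718 and 382 TPM) were both above its Bama pig GOM libraries (156 and 300 TPM). Among the other 3, COL28A1 had a log2 fold change of 1.67, COL4A4 of 2.52 and COL27A1 of -1.05. In TPM, 2 collagens had both wild boar libraries above both Bama pig libraries and 15 the reverse, beside 3.86% and 46.7% of all genes. The direction in TPM depends on scale here, since the median log2 difference of all genes was -0.49 on TPM with a pseudocount of 0.5 and -0.01 after TMM scaling of the counts, and that of the collagens moved from -0.21 to 0.22.

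In ULB, the breeds were compared through the fit of all 7 libraries, since Bama pig has 1 ULB library. COL8A2 was the only collagen called, beside 0.252% of all genes, at 7.80 and 18 TPM in wild boar against 0.29 TPM (15 counts) in Bama pig. Its log2 fold change was 5.28 (SE 0.80, adjusted p = 0.0432 by edgeR), and it was no longer called without WB-ULB 1 or without WB-ULB 2, with TPM above 1 required (adjusted p = 0.0509 by edgeR), or by limma on log2(TPM + 0.5) and log2(TPM + 0.1) (adjusted p = 0.0576 and 0.0646). Without BM-GOM 1, COL11A1 was called as well. At an unadjusted p below 0.05, 6 collagens were higher and 3 lower in wild boar, beside 5.44% and 9.51% of all genes. DESeq2 called 4 collagens beside 2.34% of all genes, COL8A1, COL11A1 and COL12A1 in addition to COL8A2, with edgeR log2 fold changes of 2.24 (SE 0.65), 3.30 (SE 0.66) and 1.78 (SE 0.62). All 7 FACIT genes tested had a value above 0 and all 5 beaded filament genes below 0, with medians of 0.96 and -0.69 on the log2 scale, where 50.1% of all genes were above 0 and 49.4% below. The lowest FACIT value was 0.05, for COL9A3. Of the beaded filament genes, COL6A3 differed little, at a TMM-scaled log2 CPM of 11.19 and 11.24 in WB-ULB against 11.26 in BM-ULB. The signs of both classes rest on the 1 Bama pig ULB library. Upper-quartile scaling moved the median of all genes from 0.00 to -0.12, and 1 collagen changed sign with it. COL1A1 was at -1.76 (SE 0.66, adjusted p = 0.286 by edgeR). Over both depots edgeR called no collagen between the breeds, beside 0.42% of all genes, with 7 higher and 2 lower in wild boar at an unadjusted p below 0.05 (9.35% and 12.3% of all genes), and DESeq2 called 4 (6.47% of all genes). COL10A1, which had counts in BM-ULB 2 alone, was among the 4. The fit over both depots had no term for the animal, so libraries of the same pigs were taken as independent. Its SE and p-values for breed may therefore be too small. The median of all genes over both depots was -0.04 after TMM scaling, -0.18 with upper-quartile factors and -0.28 on TPM with a pseudocount of 0.5, and that of the collagens 0.30, 0.16 and -0.01. COL28A1, a collagen known from peripheral nerve, was nearest to the threshold over both depots, at 1.75 (SE 0.39, adjusted p = 0.0779 by edgeR). Its TPM was 5.60 and 8.16 in WB-GOM, 5.31 and 13.4 in WB-ULB, 2.46 and 4.11 in BM-GOM, and 2.32 in BM-ULB, so that all 4 wild boar libraries were above all 3 Bama pig libraries, the only collagen of which this held, beside 1.08% of all genes. No collagen was lower in every wild boar library, beside 11.7% of all genes. Without BM-GOM 2, COL28A1, COL21A1 and COL10A1 were called between the breeds.

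Enzymes, chaperones and other proteins that take part in making and maturing collagen were taken as a list of 33 genes, of which 31 were found and tested. Between depots 3 were called lower in GOM and 0 higher, beside 1.29% and 2.29% of all genes. At an unadjusted p below 0.05, 8 were higher and 4 lower, beside 10.9% and 8.94% of all genes, and the median was 0.38 on the log2 scale. The median of this list was thus above 0 and that of the collagens below 0. LOX, the oxidase that starts cross-linking, was at 59.5 and 38 TPM in WB-GOM, 238 and 289 TPM in WB-ULB, 87.3 and 53.9 TPM in BM-GOM, and 121 TPM in BM-ULB, with a log2 fold change of -1.85 (SE 0.31, adjusted p = 0.00915 by edgeR). PCOLCE, which speeds the cut of the C-terminal propeptide, had a log2 fold change of -1.64 (SE 0.31, adjusted p = 0.0165 by edgeR), at 33.6 to 61.4 TPM in GOM and 149 to 166 TPM in ULB. P4HA3, a prolyl 4-hydroxylase subunit, was at 14.9 and 33.3 TPM in WB-ULB and at most 1.78 TPM elsewhere, with a log2 fold change of -3.62 (SE 0.63, adjusted p = 0.0118 by edgeR). The 2 wild boar ULB libraries were the highest for P4HA3 and LOX, as for COL11A1, COL12A1 and COL8A2. Of 8 collagen receptors, DDR1 was higher in GOM (8.05 to 15.3 TPM against 2.47 to 4.22 TPM, log2 fold change 1.83, SE 0.30, adjusted p = 0.00914 by edgeR), and the integrin subunit ITGA2 was lower (-2.49, SE 0.57, adjusted p = 0.04 by edgeR), with its highest values again in both WB-ULB libraries. None of the 39 genes found on these lists was called between the breeds in GOM, where 6 biosynthesis genes and no receptor were higher in wild boar at an unadjusted p below 0.05, and 1 biosynthesis gene was lower, beside 3.29% and 4.71% of all genes. None was called between the breeds in ULB either, where 9 biosynthesis genes and 2 receptors were higher and 1 biosynthesis gene was lower at an unadjusted p below 0.05, beside 5.44% and 9.51% of all genes, with medians of 0.72 and 0.47 on the log2 scale for the lists.

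Compartments were read from PC1, the first principal component of the Hi-C contact map, given for each 20-kb bin and library, where a positive score marks compartment A (open, gene-rich) and a negative score compartment B. Of the 39 collagens, 35 lay on autosomes and had a bin at their start site, COL4A5 and COL4A6 lay on X, and COL6A1 and COL6A2 were not placed on a chromosome here. The start site was in compartment A in all 7 libraries for 23 collagens (65.7%, beside 78.5% of 13097 placed genes), in B in all libraries for 6 (beside 9.98%) and mixed for 6 (beside 11.5%). The 8 fibrillar genes in A included COL1A1 (25.0 to 30.1), COL1A2 (11.6 to 21.0) and COL3A1 (11.4 to 22.2), and the 2 in B were COL2A1 and COL11A1. COL18A1 had the highest scores, 61.1 to 84.7, and COL11A1 the lowest, -47.6 to -27.2. COL4A1 and COL4A2 share a bin at 32.8 to 44.8, and COL4A3 and COL4A4 share a bin in B at -14.5 to -6.4. Across the 35 genes, Spearman's rho between TPM and PC1 was 0.37 to 0.47 in the 7 libraries, a description over genes that share libraries and, for 2 pairs, a bin.

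**Figure D5:**
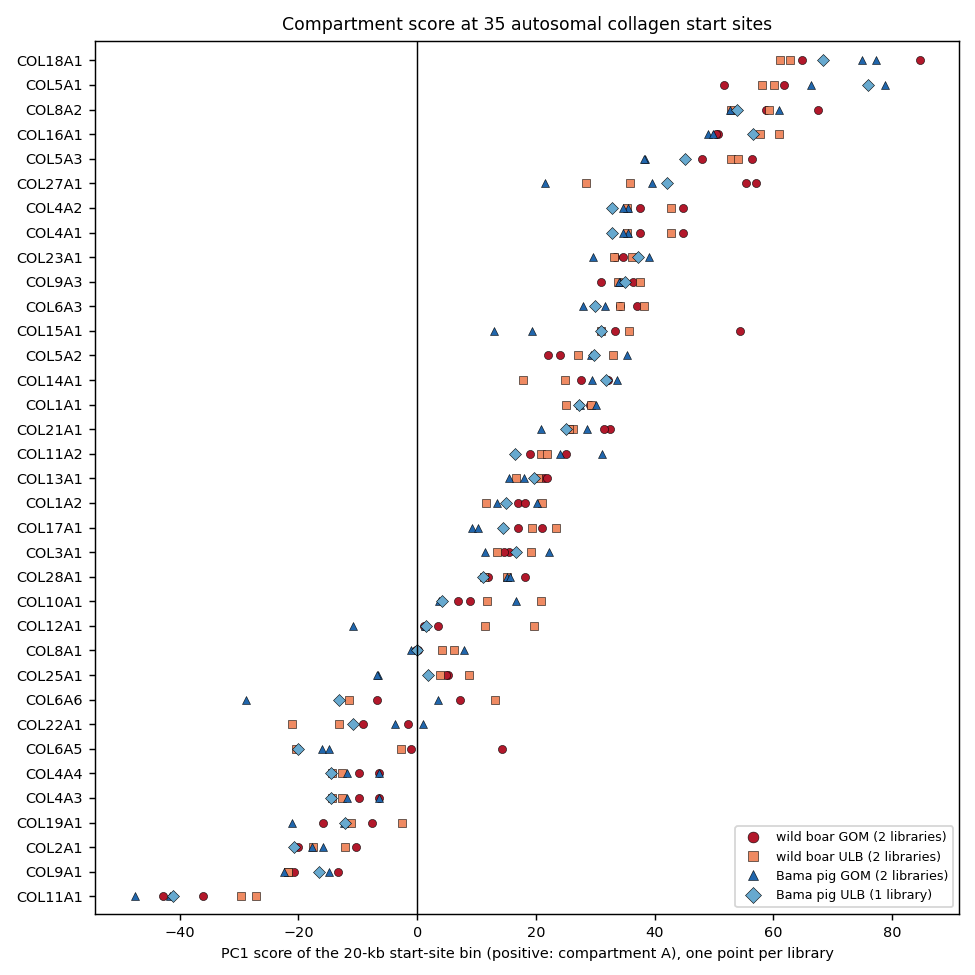
PC1 score of the 20-kb start-site bin for 35 autosomal collagen genes, ordered by mean, one point per library, with the line at 0 dividing compartment A (right) from B (left). COL18A1 is highest and COL11A1 lowest, and the 6 genes whose points cross 0 are COL12A1, COL8A1, COL25A1, COL6A6, COL22A1 and COL6A5.

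Between depots, limma's moderated test over 113298 autosomal bins called no collagen bin at an adjusted p below 0.05, beside 2.3% of all bins. At an unadjusted p below 0.05, 6 collagen loci differed, beside 21.2% of all autosomal bins, a share that was not taken over start-site bins alone. COL22A1 was at -1.5 and -9.1 in WB-GOM, -21.1 and -13.2 in WB-ULB, -3.7 and 1.0 in BM-GOM, and -10.9 in BM-ULB, so that every GOM library was above every ULB library, as for its TPM. The difference was 10.94 (SE 3.19, adjusted p = 0.102 by limma). COL16A1 was the reverse, at 50.7 and 50.4 in WB-GOM, 57.7 and 60.9 in WB-ULB, 48.9 and 49.8 in BM-GOM, and 56.6 in BM-ULB, with a difference of -8.13 (SE 2.42, adjusted p = 0.107 by limma), also in the direction of its TPM. COL4A3 and COL4A4 were the other collagens without overlap, higher in GOM, so that 3 were higher and 1 was lower, beside 8.74% and 5.73% of placed genes. The shared bin of COL4A3 and COL4A4 had a difference of 5.39 (SE 2.62), whereas their RNA log2 fold changes were below 0, at -1.82 and -1.96 (adjusted p = 0.356 and 0.231 by edgeR). COL12A1 was at 3.5 and 1.1 in WB-GOM, 19.6 and 11.4 in WB-ULB, 1.3 and -10.9 in BM-GOM, and 1.4 in BM-ULB, and COL11A1 was at -42.8 and -36.1 in WB-GOM, -27.2 and -29.6 in WB-ULB, -41.6 and -47.6 in BM-GOM, and -41.2 in BM-ULB. For both genes the pair of wild boar ULB libraries had the highest scores, as it had the highest TPM, with depot differences of -10.44 (SE 3.73, adjusted p = 0.16 by limma) and -7.98 (SE 3.13, adjusted p = 0.19 by limma). COL8A2, whose TPM was also highest in wild boar ULB, ran otherwise in PC1. It was at 67.5 and 58.7 in WB-GOM, 59.2 and 52.8 in WB-ULB, 52.6 and 60.9 in BM-GOM, and 53.9 in BM-ULB. Its depot difference was 5.43 (SE 3.47, adjusted p = 0.399 by limma). COL6A6, called lower in GOM by RNA, had a PC1 difference of -0.17 (SE 8.12). COL6A3, which was called between depots by RNA, was at 27.9 to 37.0 in GOM and 29.9 to 38.2 in ULB, and COL1A1 and COL3A1 overlapped between depots as well. The Hi-C and RNA samples differ in cell mixture, and the part of this in any parallel between PC1 and TPM was not tested.

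Between breeds, limma called no collagen bin, beside 0.00971% of all bins, and 9 collagen loci had an unadjusted p below 0.05, beside 12.1% of bins. These shares are over all autosomal bins and were not taken over start-site bins alone. The limma fit over both depots had no term for the animal either, so its SE and p-values for breed may be too small. COL5A1 was at 51.7 to 61.8 in wild boar against 66.4 to 78.8 in Bama pig (difference -16.31, SE 3.74, adjusted p = 0.229 by limma). COL15A1 was at 31.0 to 54.3 against 13.0 to 31.0, with a difference of 17.51 (SE 6.22, adjusted p = 0.329 by limma). For COL15A1 the lowest wild boar library and the highest Bama pig library both rounded to 31.0. Counting loci whose breeds did not overlap, 5 were higher in wild boar (COL5A3, COL6A3, COL15A1, COL17A1 and COL25A1, beside 7.38% of placed genes) and COL5A1 was lower (beside 2.92%). A switch was counted where all libraries of one breed were in A and all of the other in B within a depot. In GOM, COL25A1, a transmembrane collagen of neurons at chr8:112866597-113335765, was the only collagen switched, beside 1.59% of placed genes, at 5.2 and 4.9 in WB-GOM against -6.6 and -6.8 in BM-GOM. Its TPM in GOM was 0.08 and 0.03 in wild boar and 0.04 and 0.23 in Bama pig, and it did not pass the filter on low TPM in that comparison. In ULB its TPM was 0.34 and 0.41 in wild boar and 0.80 in Bama pig. In ULB, COL8A1 was the only switched collagen, beside 2.29% of placed genes, at 6.2 and 4.1 in WB-ULB against a score just below 0 in BM-ULB. Its TPM was 19.7 and 8.90 in WB-GOM, 19 and 52 in WB-ULB, 13.3 and 16.6 in BM-GOM, and 6.77 in BM-ULB. No collagen switched between depots over both breeds, beside 0.435% of placed genes, or within wild boar, beside 0.993%.

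Topologically associated domains (TADs), stretches of DNA with frequent internal contacts, were given as 4 lists, each called by the authors on the merged replicates of a breed and depot, so that they carry no replicate error. Of the 5 collagen pairs with start sites within 500 kb, the start sites of COL4A1 and COL4A2, of COL4A3 and COL4A4, and of COL6A5 and COL6A6 lay in 1 TAD in 4 of 4 lists. Those of COL9A1 and COL19A1 lay in 1 TAD in 0 of 4 lists. COL3A1 and COL5A2 point towards each other on chromosome 15, with starts 424217 bases apart. In both ULB lists COL3A1 and most of the body of COL5A2 lay in 1 TAD of 760 kb (chr15:93200001-93960000). In both GOM lists a TAD ended near the start of COL3A1 instead, at 93560000 in Bama pig and 93580000 in wild boar, and a separate TAD of 300 kb (chr15:93680001-93980000) covered most of COL5A2. The start of COL5A2 itself, at 93981131, was in no TAD in any list. A TAD edge within 40 kb of the start in both GOM lists and no ULB list was found for COL3A1 alone of the 35 collagens, beside 1.43% of placed genes, and the reverse for 0 collagens, beside 2.08%. This locus was chosen after its values were seen.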

How the data were processed

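RNA libraries of 2 adipose depots from 4 pigs were sequenced after ribosomal RNA depletion, and Hi-C libraries were made from the same breeds and depots. The authors quantified the RNA reads with Kallisto (0.43.0 per the submitters' processing notes) on Ensembl transcripts of Sscrofa11.1 and deposited estimated counts and TPM per gene. The libraries were strand-specific and Kallisto was run with its default settings, which do not use strand, so overlapping antisense transcripts cannot be told apart by strand. The authors deposited PC1 as a score per 20-kb bin, signed by gene density, and TAD positions called on merged replicates. The score files were named as an A-B index, and their values were read as PC1. Bama pig ULB replicate 1 was not used here as a library. The TAD list of Bama pig ULB is an exception, since the paper merged the replicates to call it.

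Expected counts were rounded to whole numbers. Genes with TPM above 0.1 in every library of at least 1 group were tested with edgeR 4.0.16 (quasi-likelihood, TMM factors) in R 4.3.3. The depot comparison used 7 libraries with breed as a covariate, and the breed comparison over both depots the same fit. The breed comparison in GOM used its 4 libraries, and the other contrasts a fit with a term for each breed and depot. Apart from the replicate block, no fit had a term for the animal. Genes were called at a Benjamini-Hochberg adjusted p below 0.05 over all genes tested and an absolute log2 fold change above 1. PC1 was tested with limma 3.58.1 on depot and breed. The scripts were tested on simulated data. DESeq2 1.42.0, other scaling factors, other filters, limma on log2(TPM + 0.5) and log2(TPM + 0.1), a replicate block and leaving out each library were tried as alternatives. No source used here says that a replicate number marks an animal.

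Depth was 10833153 to 18627076 estimated counts per library, and intervals from counts cover counting error only. Exon GC came from RefSeq transcripts of Sscrofa11.1 for 36 of 39 collagens. Collagens are given per library when their median TPM was at least 20, when they were called, or when their bin switched, and others by class. COL6A5, COL28A1, the loci named for PC1 differences and the TAD edges of COL3A1 were added after their values were seen. The collagens, lists, markers and tests were chosen with earlier results of these data known.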

Additional observations from a re-analysis of the deposited data

Results flagged for a closer look

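Over collagen TPM and PC1, 73 groups of 4 libraries were tested for a value far from the other 3, of which chance alone flags about 5%, and 4 were found. COL6A1 was at 257 TPM in BM-GOM 1, against 139 to 152 TPM in the other GOM libraries. In TMM-scaled log2 CPM it was at 9.03 in BM-GOM 1, against 8.40 to 8.93 in the other GOM libraries. COL6A5 was at 104 TPM in BM-GOM 2, against 8.29 to 18.1 TPM in the other GOM libraries. The PC1 score of COL8A1 was 7.8 in BM-GOM 2, against -1.0 to 0.1 in the other GOM libraries. The PC1 score of COL12A1 was -10.9 in BM-GOM 2, against 1.1 to 3.5 in the other GOM libraries.

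The depot values of COL8A2 had opposite signs in the 2 breeds, below 0 in wild boar and above 0 in Bama pig. The interaction was -5.63 on the log2 scale (SE 0.90, adjusted p = 0.465 by edgeR with Benjamini-Hochberg adjustment, unadjusted p = 0.000149), and DESeq2 gave an adjusted p of 2.88e-06. It rests on 1 Bama pig ULB library with 15 counts.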

How the results depend on the processing

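The direction of each called collagen gene was kept in all alternatives. The median depot value of the collagens was below 0 in each, from -0.84 (upper-quartile factors) to -0.46 (TPM above 1 required, 22 of 29 genes below 0). Without BM-ULB 2 it was -0.49, and without WB-ULB 2 25 of 38 genes were below 0. Within Bama pig the median was -0.63, and -0.16 with TPM above 1 required. COL22A1 was called between depots in all 16 of them, with a log2 fold change of 2.49 (limma on log2(TPM + 0.5)) to 6.60. The number of collagens called depended on the tool. DESeq2 called 14 between depots (5 by edgeR), 8 within wild boar (4), 8 within Bama pig (1), 2 for the interaction (0), 1 between breeds in GOM (0), 4 in ULB (1) and 4 over both depots (0). With no filter beyond a total count above 0, edgeR called 12 between depots, 7 within wild boar, 4 within Bama pig, 1 for the interaction, 2 between breeds in ULB and 1 over both depots. With TPM above 1 required, 0 were called between breeds in ULB, and limma called COL10A1 there in place of COL8A2. Limma on log2(TPM + 0.5) and on log2(TPM + 0.1) called 0 within wild boar, 2 within Bama pig and 1 for the interaction in each case, where COL10A1, counted in 1 library, was called for the interaction and in Bama pig. The 4 wild boar libraries alone gave 7 calls between depots. Leaving out 1 library at a time, the calls ranged from 3 to 6 between depots, 0 to 7 within wild boar, 0 to 1 within Bama pig, 0 to 3 between breeds over both depots and 0 to 2 in ULB, and were 0 for the interaction and for breeds in GOM. Contrasts that need Bama pig ULB had no value without BM-ULB 2. COL16A1 and COL6A6 lost their depot call in 5 of 7 such fits each, and COL6A3 and COL4A6 only without BM-ULB 2.

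With a replicate block, 7 collagens were called between depots, COL21A1, COL12A1 and COL6A5 added and COL6A6 lost (adjusted p = 0.0535 by edgeR), 13 within wild boar, and 0 between breeds in GOM. Between breeds, a shared replicate number cannot mark a shared animal. The difference of replicates 1 and 2 in wild boar GOM was correlated at 0.15 with that in wild boar ULB. The correlation with that in Bama pig GOM, which came from other animals, was also 0.15. The blocked fit of PC1 between depots called 0 loci.

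PC1 differences were called for 0 collagen loci in all alternatives. The count of loci switched between breeds in GOM was 2 with PC1 centred on each chromosome's median, 0 with the mean over the gene, and 1 to 3 leaving out a library. In ULB it was 0 and 0, and 1 to 2. Between depots in wild boar it was 0 to 1 leaving out a library, and over both breeds 0 throughout. Depth limits genes with few counts, such as COL22A1 in ULB (2 to 8 counts) and COL8A2 in BM-ULB 2 (15 counts).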
